A study of Drosophila melanogaster with 8 samples.

Results

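The genes described here make neuropeptides out of their precursors and carry them in dense-core vesicles, the large vesicles from which peptides are released. The set comprises 10 genes (7B2, amon, svr, Phm, Pal1, Pal2, Syt4, dimm, Ia-2 and Cadps), which were found by their FlyBase identifiers. A value was given for 6 of the 10, out of 11773 gene identifiers in each library. These are 7B2, amon, svr, Phm, Syt4 and dimm, while Pal1, Pal2, Ia-2 (IA-2 in current nomenclature) and Cadps were not analysed here.

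RNA sequencing was done on 8 libraries of Dh44 neurons from dissected brains of Drosophila melanogaster aged 5 days. Every fly had the genotype DH44-GAL4;UAS-mCD8gfp, so a membrane-bound green fluorescent protein marked the cells in which the Dh44 driver was active, and the marked cells were collected by micropipette. All libraries form 1 group without a control cell type or diet, and the study concerned an internal sensor of dietary amino acids. The number of cells per library is not settled, since the series text speaks of individual cells and a label of cells pooled in situ, and no animal is named. Levels are FPKM, which are fragments scaled to exon length and to the mapped fragments of the library. This scaling lets different genes be set side by side, but an effect of transcript length on recovery during amplification was not tested. An exact 0 is written as listed at 0, because read depth is unknown.

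A neuropeptide starts as a longer precursor that enters the secretory pathway. A prohormone convertase cuts it at pairs of basic residues, a carboxypeptidase trims the basic residues left at the new end, and a peptide ending in glycine is then amidated in successive steps by a hydroxylating enzyme and a lyase. In vertebrates the amidating activities sit in a single protein, whereas Drosophila encodes them by separate genes. Dh44 itself belongs to the diuretic hormones related to corticotropin-releasing factor, which are amidated peptides. The transcription factor Dimm is known in Drosophila to promote the peptidergic secretory state and to activate Phm.

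The measured genes were abundant, and all but dimm were found in every library. All 6 genes reached 1 FPKM in at least 4 libraries, against 41.2% of all genes, and 5 reached it in all 8, against 11.0% of all genes. A median of 100 FPKM or more was found for 5 of the 6, against 6.79% of all genes. Together the 6 genes held a median of 1.20% of the summed FPKM of a library, from 0.322% in library 8 to 1.45% in library 5. The genes were known to be abundant here when they were chosen, so these counts describe them and test nothing.

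**Figure D1:**
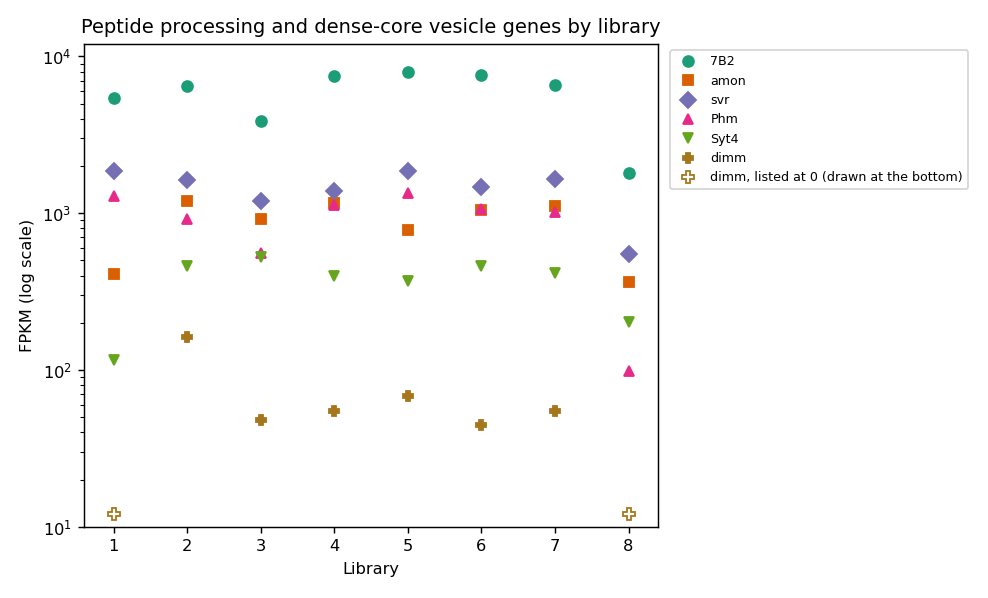
FPKM of the 6 measured genes in each of the 8 libraries on a log axis, 1 symbol per gene and library. The order 7B2, then svr, held in every library, Phm dropped to 98.6 FPKM in library 8, and the open symbols mark dimm where it was listed at 0, in libraries 1 and 8.

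The libraries differed in content. Summed FPKM ran from 812029 to 935440, and 2518 genes (library 1) to 5256 genes (library 4) reached 1 FPKM. All 7 measured neuronal markers reached 1 FPKM in at least 4 libraries, against 41.2% of all genes. They summed to 461.8 FPKM in library 8 and 962 in library 1, against 1485 to 1957 FPKM in the other 6 libraries. The neuronal marker Snap25 did not follow the sum, since library 1 held its highest value, 319 FPKM. Snap25 was lowest in library 3 (44.5 FPKM), and library 6 (70.3) also lay below library 8 (82.8). For elav, libraries 8 and 1 were lowest (0.821 and 1.11 FPKM), but libraries 3 (1.40) and 5 (4.21) were little higher. Syt1, brp, Appl, fne and Rab3 were each lower in libraries 1 and 8 than in any other library. Fat body markers summed to 68395 FPKM in library 8 and 56796 FPKM in library 1, against 14216 to 41633 in the other 6. Fbp2 was listed at 0 in all 8 and Fbp1 in 7, so the sums came almost wholly from Yp1, Yp2, Yp3 and Lsp2. Glial markers summed to between 47.9 FPKM (library 2) and 325 FPKM (library 3). Of the 6 measured, 3 were detected in at least 4 libraries, against 41.2% of all genes. The glial genes Gs2, nrv2 and Eaat1 had medians of 56.7, 40.2 and 16.5 FPKM and were at 1 FPKM or more in all 8 libraries, whereas repo, the defining glial factor, had a median of 0.378 FPKM. Photoreceptor markers summed to between 768 FPKM (library 4) and 3881 FPKM (library 8), whereas norpA of this list was lowest in library 8, at 7.99 FPKM. The hemocyte sum was highest in library 1, at 283 FPKM, and lowest in library 3, at 20.6 FPKM. In library 1 it came mostly from crq (200 FPKM) and Hml (74.6 FPKM), while srp was at its lowest, 2.95 FPKM. The muscle sum was lowest in library 1, at 28.9 FPKM, and highest in library 8, at 306 FPKM. Of the latter, 262 FPKM came from Mlc1, while up and wupA were listed at 0 there. Libraries 1 and 8 therefore stand apart by the neuronal and fat body sums. Their low neuronal genes were already known from earlier results of these data, and results are also given without libraries 1 and 8. Library 3 stood apart by its insulin cell markers (32919 FPKM), and no repeat left it out. Fewer Dh44 neurons in a library and less RNA of these genes per neuron cannot be told apart. Other sources of low values, technical ones among them, were not tested.

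The convertase and its helper came first in the pathway, and the helper had by far the higher FPKM. amon encodes the fly counterpart of prohormone convertase PC2, and 7B2 a small secretory protein that in mammals is needed for PC2 to become active. 7B2 (FBgn0041707) spans 3R:5376780-5377975 (plus strand, assembly BDGP6.54) with 1148 bp of exons. Its levels in libraries 1 to 8 were 5444, 6461, 3852, 7519, 7913, 7554, 6535 and 1801 FPKM. It was the highest of the 6 genes in all 8 libraries and stood at rank 8 to 27 among all genes of a library, except in library 8, where it was at rank 110. Over the 8 libraries the mean was 5885 ± 2115 FPKM (SD, n = 8).

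amon (FBgn0023179) spans 3R:26697697-26714159 on the minus strand, with 3991 bp of exons. Libraries 1 to 8 had 407, 1195, 914, 1167, 780, 1041, 1111 and 366 FPKM of amon, a mean of 873 ± 329 (SD, n = 8). Libraries 8 and 1 were lowest, and the other 6 libraries lay within a 1.53-fold range. The level of 7B2 was a median of 6.16 times that of amon in the same library. This ratio was lowest in library 3 at 4.22 and highest in library 1 at 13.4, where amon was low and 7B2 was not, followed by library 5 at 10.2. The helper thus exceeded its convertase in FPKM in 8 of 8 libraries, by a factor that varied 3.17-fold.

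Trimming was represented by svr, the silver gene, which encodes a carboxypeptidase of the D type. svr (FBgn0004648) spans X:496446-509072 on the plus strand and has 11 annotated transcripts, which a value per gene does not separate. Its levels in libraries 1 to 8 were 1860, 1636, 1198, 1380, 1849, 1460, 1660 and 547 FPKM, a mean of 1449 ± 429 (SD, n = 8). Library 8 was lowest and library 1 highest. svr was second to 7B2 in all 8 libraries. Of its exon length, 7.54% is shared with the opposite-strand RNA gene asRNA:CR44891 and 1.98% with asRNA:CR44892, whose reads cannot be separated without strand.

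Phm encodes the copper-dependent hydroxylating enzyme that begins amidation. Phm (FBgn0283509) spans 2R:23985175-23988455 on the minus strand, and 3 bp of its exons overlap Sox14 on the opposite strand, whose median was 9.33 FPKM. Libraries 1 to 8 had 1284, 921, 560, 1129, 1348, 1060, 1019 and 98.6 FPKM of Phm, a mean of 927 ± 413 (SD, n = 8). The value in library 8 was far below those of the other 7 libraries, of which library 3 was lowest. Phm spanned a 13.7-fold range over all libraries and a 2.41-fold range over libraries 2 to 7. Phm and amon did not hold an order: Phm was the higher of the pair in 3 of 8 libraries. The lyases of the next amidation step, Pal1 and Pal2, were not analysed here.

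Relative to svr, the other enzymes were low in different libraries. The ratio of Phm to svr had a median of 0.652, lay between 0.467 and 0.818 in libraries 1 to 7, and was 0.180 in library 8. The ratio of amon to svr had a median of 0.691, was 0.668 in library 8, and was lowest in library 1 at 0.219 and library 5 at 0.422. Both ratios were chosen after the values had been seen. Library 8 was thus low in Phm for its level of svr but not in amon, and library 1 was low in amon for its level of svr but not in Phm.

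**Figure D2:**
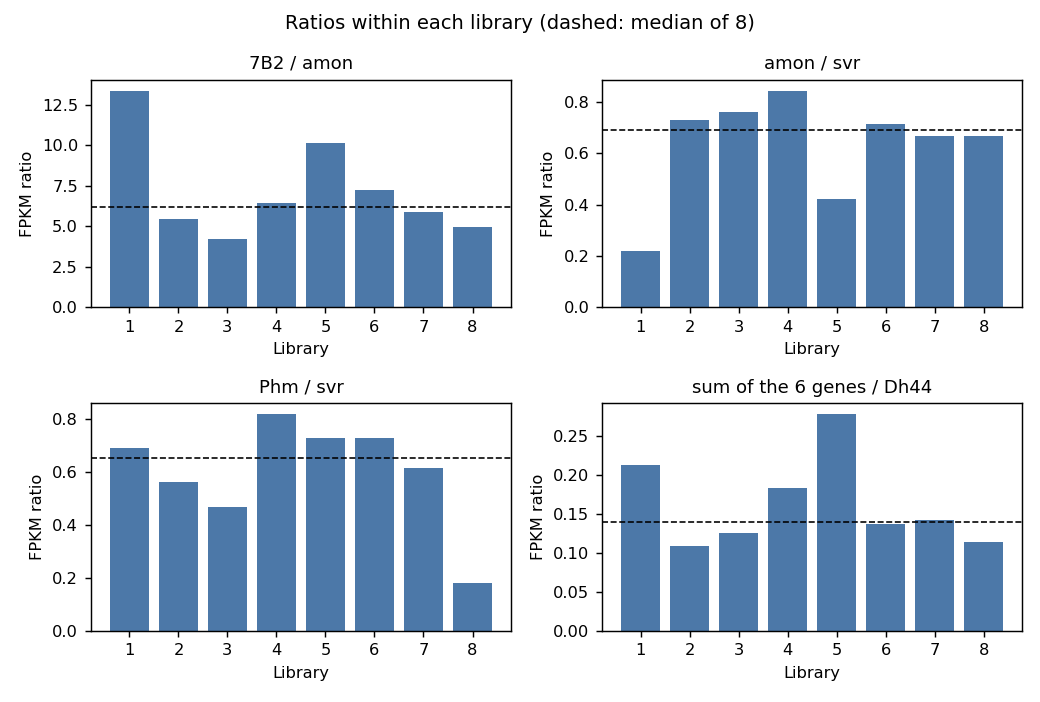
Ratio of FPKM values within each library for 4 pairs, with bars from 0 and a dashed line at the median of 8 libraries. The 7B2 to amon ratio peaked at 13.4 in library 1, the Phm to svr ratio dropped to 0.180 in library 8, and the summed genes reached 0.278 of Dh44 in library 5.

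Syt4 encodes a synaptotagmin, a vesicle membrane protein with calcium-binding domains that is known in Drosophila from regulated release at the postsynaptic side of the neuromuscular junction. Syt4 (FBgn0028400) spans 3R:7266065-7270809 on the plus strand. Its levels in libraries 1 to 8 were 115.0, 463, 525, 397, 370, 461, 417 and 201 FPKM, a mean of 369 ± 140 (SD, n = 8). Library 1 was lowest and library 8 next. Between libraries 2 and 7 the range was 1.42-fold, the narrowest of the 6 genes.

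dimm encodes the basic helix-loop-helix transcription factor named above, and was the least abundant of the 6. dimm (FBgn0023091) spans 2L:21331756-21342155 on the plus strand. It was listed at 0 in libraries 1 and 8, and libraries 2 to 7 had 164, 48.2, 54.5, 67.9, 44.7 and 54.4 FPKM. The value of library 2 stood above the others, and the remaining 5 libraries with a value lay close together. In library 1, where dimm was listed at 0, Phm was at 1284 FPKM, its second highest value. In library 8 dimm was listed at 0 and Phm was at its lowest. With unknown depth, no detection limit for dimm can be given in these libraries.

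Each library was next set against the median of the other 7 on the log2(FPKM + 1) scale. Every one of the 6 genes had its lowest value in library 1 or 8 (dimm in both), against 76.0% of the 4846 genes detected in at least 4 libraries. Libraries 1 and 8 were chosen for this count with their low neuronal genes already known, so the count describes the genes and tests nothing. These 4846 genes, the basis of the shares that follow, were not matched to the 6 genes for level. In library 8 all 6 genes were lower by 2-fold or more, against 52.8% of those genes. The differences there were -1.05 (Syt4), -1.51 (amon), -1.58 (svr), -1.86 (7B2), -3.41 (Phm) and -5.79 (dimm). The count was 5 of 6 after rescaling without ribosomal protein genes and after dividing by the library's median, since Syt4 was then at -0.98 and -0.50. The median difference was -1.72 for the 6 genes and -1.17 for all detected genes, so other genes were lower in this library too. In the same library the neuronal sum was low, and the fat body, photoreceptor and muscle sums were at their highest. The muscle sum there came mostly from Mlc1 (262 FPKM), and the photoreceptor gene norpA was at its lowest. The part of these markers in the result was not tested.

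In library 1 the 6 genes parted. amon, Syt4 and dimm were lower by 2-fold or more, at -1.35, -1.85 and -5.79, against 64.8% of all detected genes that were so. 7B2 was at -0.26, Phm at 0.33 and svr at 0.35, and svr had its highest value of the 8 libraries there. All detected genes had a median difference of -2.11 in library 1, and 1 of the 6 genes, dimm, lay below it. The signs of these 6 differences were the same under all 3 other scalings. The hemocyte sum was at its highest in library 1, mostly from crq and Hml, while srp was at its lowest there. The fat body sum was above those of libraries 2 to 7 and the neuronal sum was below them. The part of these markers in the result was not tested.

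In libraries 2 to 7 none of the 6 genes was lower by 2-fold or more. The shares of all detected genes that were so were 18.8%, 38.6%, 22.1%, 21.5%, 28.1% and 19.1% in libraries 2 to 7. Since those genes were not matched for level, the shares do not tell whether the 6 genes were steady for their level. Only dimm in library 2 was higher by 2-fold or more, at 1.74, that is 1 of 6 genes against 34.8% of all detected genes. Library 3 had the most genes with low values of these 6 libraries, and in it Phm was at -0.92, 7B2 at -0.76 and svr at -0.45, whereas Syt4 was at 0.40. The insulin cell markers summed to 32919 FPKM in library 3, against 1066 to 6338 FPKM in the other 7, from Ilp5 (15383 FPKM), Ilp3 (10275 FPKM) and Ilp2 (7261 FPKM) with Dsk listed at 0, and their part in the result was not tested. Insulin-producing cells are neighbouring peptidergic neurons that use the same kind of processing genes.

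**Figure D3:**
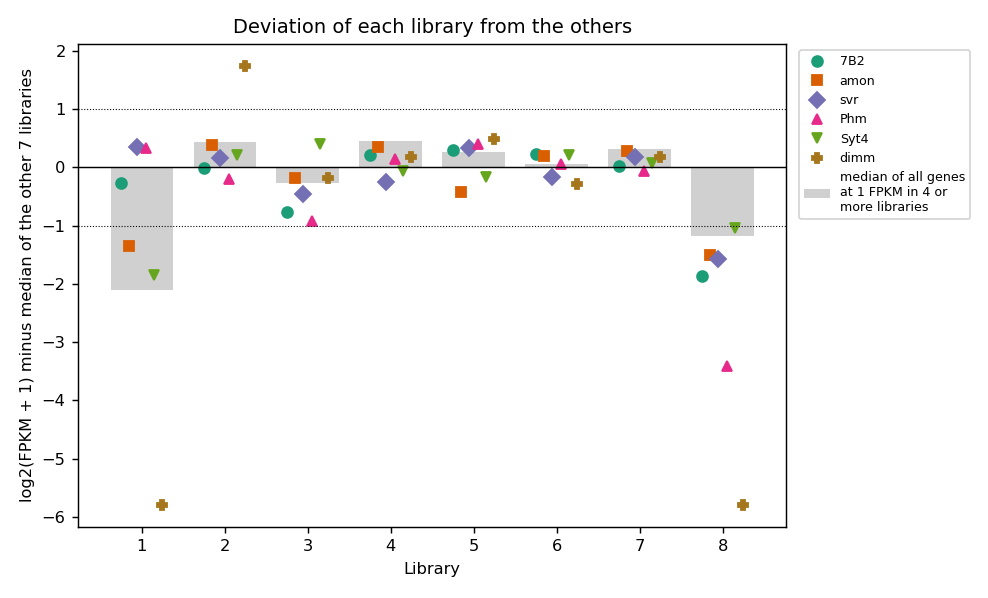
Difference of log2(FPKM + 1) in each library from the median of the other 7, with symbols for the 6 genes and grey bars for the median of the 4846 genes at 1 FPKM in 4 or more libraries. Dotted lines mark 2-fold, all 6 genes lie below the lower line in library 8, and in library 1 only amon, Syt4 and dimm do.

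Phm and dimm varied over libraries more than most genes of like level, and the other 4 genes lay nearer the middle. The SD of log2(FPKM + 1) was 0.58 for svr, 0.68 for amon, 0.72 for 7B2, 0.75 for Syt4, 1.25 for Phm and 2.85 for dimm (n = 8). Among the 200 genes nearest in mean level, these SDs lay at percentile 48.5 (svr), 47.5 (amon), 63 (7B2), 37 (Syt4), 88.5 (Phm) and 80 (dimm). Without libraries 1 and 8 the SD of Syt4 was 0.18, at percentile 2.5, and that of amon 0.24, at percentile 17. The SDs of svr and dimm then lay at percentiles 20 and 21, and those of 7B2 and Phm both at 53.5.

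Pairs of these genes varied together in some cases, as a description over libraries that share a normalisation to their own total. Over 8 libraries all 15 pairs had a Pearson r of log2(FPKM + 1) above 0, with a median of 0.67. The highest values were 0.97 for svr and Phm (Spearman rho 0.76), 0.95 for 7B2 and Phm (rho 0.74) and 0.95 for amon and dimm (rho 0.73). Without libraries 1 and 8 the median was 0.12 and 9 pairs were above 0. The pair of 7B2 and Phm then had r = 0.97 (rho 0.94, n = 6), and svr and Phm had r = 0.77 (rho 0.49). amon and dimm had r = 0.31 without these libraries, so their high value rests on libraries 1 and 8. Syt4 ran opposite to Phm (r = -0.91) and 7B2 (r = -0.81) over these 6 libraries, where library 3 was lowest for Phm and 7B2 and highest for Syt4.

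**Figure D4:**
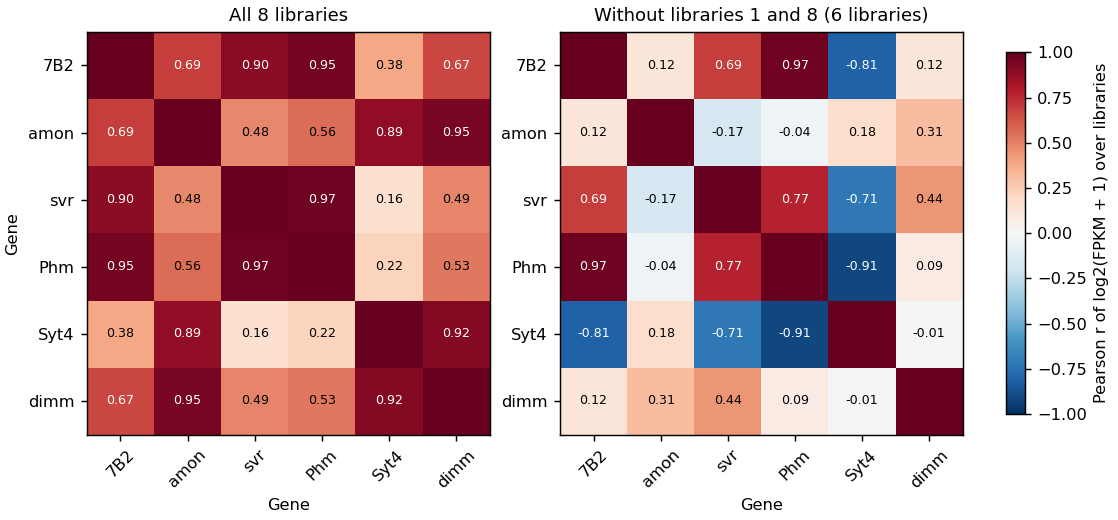
Pearson r of log2(FPKM + 1) between the 6 genes, over all 8 libraries at left and over the 6 libraries left without 1 and 8 at right. 7B2 and Phm were at 0.95 at left and 0.97 at right, and the values of Syt4 with 7B2, svr and Phm turned negative.

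The genes were next set beside the peptide hormone genes Dh44 and Gpb5. Dh44 had 42712, 99818, 56776, 63370, 44372, 85013, 75624 and 26309 FPKM in libraries 1 to 8, a median of 60073 FPKM. The summed level of the 6 genes was a median of 0.140 of Dh44, from 0.109 in library 2 to 0.278 in library 5. Over 8 libraries amon was the gene closest to Dh44, with r = 0.89 (rho 0.90), and r = 0.83 (rho 0.77) without libraries 1 and 8. Phm and Dh44 had r = 0.63 over 8 libraries and -0.11 over 6. Gpb5, the gene of a glycoprotein hormone subunit, had 4405, 3289, 1186, 5333, 3700, 4320, 2923 and 699 FPKM in libraries 1 to 8. It ran close to 7B2, with r = 0.93 (rho 0.60) over 8 libraries and 0.96 (rho 0.71) over 6, and close to Phm, with r = 0.91 and 0.89. Of libraries 2 to 7, library 3 was lowest for Gpb5, 7B2 and Phm alike, and how far these values rest on it was not tested. These correlations with peptide genes were computed after the values had been seen.

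By the rule on likeness, the genes with the highest Pearson r over 8 libraries were sought among the 1300 genes at 1 FPKM or more in every library. For 7B2 they were mts, the catalytic subunit of protein phosphatase 2A (r = 0.98), the RNA helicase gene Rm62 (0.98) and CG15012 (0.97). For amon they were CG42795 (0.99), CG31140 (0.97) and CG1648 (0.97). For Phm they were Atg8a, a ubiquitin-like protein of autophagosomes (0.99), CG6184 (0.99) and FBgn0019643 (0.98), an identifier without a matched symbol. Over the 6 libraries without 1 and 8 these 9 values lay between 0.71 and 0.93. These 6 libraries also served to pick the genes, so the values are high by the choice itself and are no independent check. Atg8a itself was abundant, with a median of 2245 FPKM (408 to 2874).

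Other genes of the pathway were mostly detected, at lower levels. Of 58 genes listed in 6 groups, 48 had a value, and 38 of those reached 1 FPKM in at least 4 libraries, against 41.2% of all genes. The median of their medians was 24.1 FPKM, against 0 over all genes. Only cpx, at 1311 FPKM, exceeded the median of amon or Phm.

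Of the other convertases, both furin-type genes were detected, against 41.2% of all genes. Fur2 had a median of 31.9 FPKM and Fur1 of 4.21 FPKM, and both were listed at 0 in library 1. Their medians were far below the 978 FPKM of amon. Of 6 measured genes for amidation cofactors and copper, 4 were detected, against the same 41.2% of all genes. The copper chaperone gene Atox1 was at 492 FPKM and above 1 FPKM in all 8 libraries (258 to 736). The copper importer gene Ctr1A (7.04 FPKM), the copper pump gene ATP7 (5.81) and nemy (1.40), which encodes a cytochrome b561 known to act in amidation in Drosophila, were much lower, given as medians. For nemy, 4 libraries were listed at 0, and library 7 was highest at 86.1 FPKM.

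All 9 measured genes of vesicle maturation and transport were detected, against 41.2% of all genes. They were led by Rab2, a small GTPase known to act in dense-core vesicle maturation, at 353 FPKM, with library 1 listed at 0. Arl8, a GTPase of lysosome-related transport, followed at 200.1 FPKM, unc-104, the kinesin that carries neuropeptide vesicles along axons, at 138 FPKM, and the kinesin light chain gene Klc at 99.4 FPKM. unc-104 was at 1 FPKM or more in all 8 libraries (44.7 to 247), whereas Klc was listed at 0 in library 8 and was highest, at 259 FPKM, in library 1.

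Of 15 measured genes of release, 13 were detected, against 41.2% of all genes, and 8 were so in all 8 libraries, against 11.0%. The complexin gene cpx, a regulator of vesicle fusion, led at 1311 FPKM (521 to 1779). It was followed by the synaptotagmin gene Sytbeta at 328 FPKM, the vesicle GTPase gene Rab3 at 287 FPKM and Sytalpha, another synaptotagmin gene, at 273 FPKM. These 3 medians were below the 407 FPKM of Syt4. Rab27 was at 24.3 FPKM in library 4 and listed at 0 in the other 7, and Syt12 reached 1 FPKM in 3 libraries.

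Of 9 peptidase genes that can break peptides down, 5 were detected, against 41.2% of all genes. Each had a median below the 51.3 FPKM of dimm, the lowest of the 6 processing and vesicle genes. The medians were 32.2 FPKM for Acer, 26.2 for the neprilysin gene Nep1, 19.9 for TppII and 7.50 for Ide. Nep2 was listed at 0 in all 8 libraries. Of 7 measured regulators, 5 were detected, against the same 41.2% of all genes. crc, the fly ATF4 factor, was at 371 FPKM (255 to 597), chn at 32.1 FPKM, dac at 30.9 FPKM and da, which encodes a general partner of helix-loop-helix factors, at 21.9 FPKM. These regulators were found in library 1 to different extents, since crc and da were highest there and chn and dac were listed at 0.

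**Figure D5:**
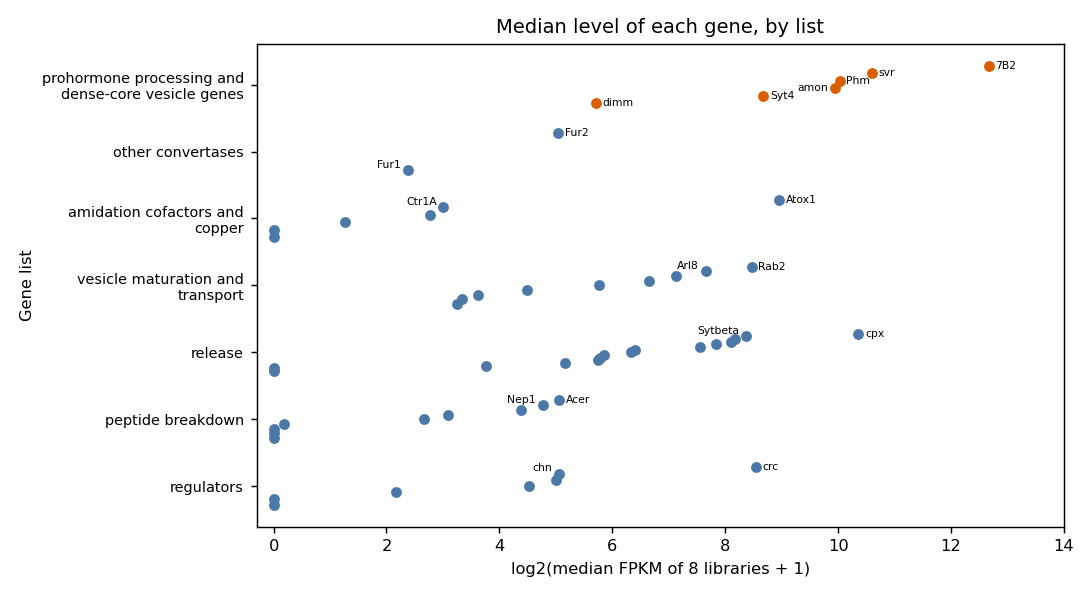
Median FPKM over 8 libraries of each gene on a log2(median + 1) scale, with the 6 prohormone processing and dense-core vesicle genes above and the 6 lists of other pathway genes below. 7B2 is at the far right, and among the other lists cpx reaches 1311 FPKM while the furin-type convertase gene Fur2 is at 31.9 FPKM.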

How the data were processed

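RNA of picked Dh44 neurons was amplified by a SMART-type protocol and sequenced. The authors deposited 1 FPKM value per gene and library. Per the series text and the labels, low-quality reads, adaptors and primers were removed and reads were mapped to the Drosophila genome; TopHat is named in the submitters' processing notes. Versions, genome build, annotation and strand are not stated in the labels or files used. Read depth is unknown, so no counting interval is given.

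Of 11773 identifiers, 11646 were matched to a symbol. Coordinates and overlaps came from Ensembl release 115 (BDGP6.54); whether the values rest on the same build is not known. Detection meant 1 FPKM or more, and logarithms were log2(FPKM + 1), with a pseudocount of 1. With 1 group, no control and no named animals, no test was run, and SDs are over 8 libraries, whose spread may be technical. Members, gene lists and the libraries left out (1 and 8) were chosen with earlier results of these data known. Named genes were the members, the 4 highest medians of each list, the 3 genes most alike to 7B2, amon and Phm, and 5 peptide genes; the rest were named after their values were seen. Computations used Python 3.11.15, pandas 2.3.3 and NumPy 2.4.6, were tested on simulated data, and were repeated under other thresholds, scalings, pseudocounts and library sets.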

Additional observations from a re-analysis of the deposited data

Results flagged for a closer look

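For 39 items (the 6 genes, 6 ratios and the other named genes), each extreme library was set against its nearest neighbour. In 8 of them the gap, as a part of the range, exceeded the critical value of Dixon's test. Normally distributed values would give this in roughly 1 of 20 cases, and FPKM is skewed towards high values. Of the 6 processing and vesicle genes, only dimm stood out, at 164 FPKM in library 2, against a median of 48.2 FPKM in the other 7.

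The copper importer gene Ctr1A was at 101 FPKM in library 2, against a median of 2.83 FPKM in the others. ATP7, the copper pump gene, was at 36.3 FPKM in library 1, against 5.12 FPKM. nemy was at 86.1 FPKM in library 7 and had a median of 0 in the others. The peptidase gene Acer was at 116 FPKM in library 8, against 29.7 FPKM. da, the helix-loop-helix partner gene, was at 138 FPKM in library 1, against 19.4 FPKM, with dimm listed at 0 in the same library. In library 3 Ilp3 was at 10275 FPKM, against 417 FPKM, and Ilp5 at 15383 FPKM, against 102 FPKM.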

How the results depend on the processing

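Counts of detected genes, medians of levels and ratios kept within the spread between libraries, or within 1.5 times the count, under every alternative run for them, including the 30 recomputed medians of the 6 genes. The ratios of 7B2 to amon, of the summed genes to Dh44, of Phm to svr and of amon to svr were likewise within 1 SD when library 1, library 8 or both were left out. A median moves little when so few libraries are left out, so staying within 1 SD is a weak check. For dimm the SD of 50.9 FPKM was close to the median of 51.3 FPKM. The exception among the repeated results was the co-variation of the 6 genes. Their median r over pairs was 0.67 over 8 libraries and 0.12 without libraries 1 and 8. In that setting r turned negative for 7B2 and Syt4 (-0.81), amon and svr (-0.17), amon and Phm (-0.041), svr and Syt4 (-0.71), Phm and Syt4 (-0.91) and Syt4 and dimm (-0.012); the setting has fewer libraries, and the cause was not tested. The planned ratio of Phm to Pal1 plus Pal2 and the promoter motif search were not run. No paired analysis was possible because all libraries belong to 1 group. Unknown depth limits what a value listed at 0 can say, above all for dimm.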
